A study of Mus musculus with 10 samples.

Results

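Granzymes and perforin are the killing proteins that natural killer (NK) cells and cytotoxic T cells keep in secretory granules. Transcripts of 9 such genes, Gzma, Gzmb, Gzmc, Gzmd, Gzme, Gzmf, Gzmg, Gzmk and Prf1, were taken by symbol from a table of 17737 genes measured by RNA sequencing in whole tumors. The tumors grew from B16-F10, a melanoma line of the mouse, implanted under the skin of the right flank of C57BL/6 mice and collected on day 11. In the D69A group (5 tumors, numbered 1 to 5) the implanted cells overexpressed IL-18 D69A, in which alanine takes the place of aspartate 69. In the WT group (5 tumors, numbered 2 to 6) they overexpressed wild-type IL-18. IL-18 is a cytokine that acts on NK and T cells, and its precursor is cut by caspases. Cleavage of either form was not measured here. Both groups carry an introduced IL-18, and no tumor without one was analysed here. The sources used here do not say whether each tumor came from its own mouse or how many cell clones were used, so the p-values cover the spread between the samples at hand, which may be technical in part.

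Killer cells release their granules toward a bound target cell. Perforin, the product of Prf1, forms pores in the target membrane, and granzymes, which are serine proteases, pass through to cleave proteins inside. Granzyme B cuts after aspartate and can start apoptosis through caspases and Bid, while granzymes A and K cut after basic residues. Gzmc, Gzmd, Gzme, Gzmf and Gzmg belong to a set expanded in rodents that lies beside Gzmb, and they are known from strongly activated killer cells of the mouse. IL-2 and IL-15, acting through Il2rb and STAT5, and the T-box factors Tbx21 and Eomes are known inducers of several of these genes.

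All 6 granzyme genes from Gzmb to Gzmg lay on the minus strand of chromosome 14 within 144.6 kb (GENCODE mouse release 21, mm10). In order of coordinate they were Gzme (chr14:56117626-56120625), Gzmd (chr14:56129556-56132608), Gzmg (chr14:56156582-56159579), Gzmf (chr14:56205263-56211417), Gzmc (chr14:56231441-56234656) and Gzmb (chr14:56258838-56262260). Gzma (chr13:113093825-113100981) and Gzmk (chr13:113171608-113225908) were neighbours on the minus strand of chromosome 13, and Prf1 (chr10:61297833-61304680) lay on the plus strand of chromosome 10. The coding sequences of Gzmd, Gzme, Gzmf and Gzmg were 83.6% to 93.3% identical to each other. Gzmc was 71.5% to 73.4% identical to those 4 genes, and Gzmb was 65.3% to 68.3% identical to them. Gzma and Gzmk were 55.5% identical to each other. The first 60 coding bases of the chromosome 14 members, from the GENCODE transcripts, are shown as an example of a stretch where reads are hard to assign. Among Gzmc to Gzmg this stretch is more alike than the coding sequences as a whole. Capitals mark bases that differ from Gzmd at the same position. The coordinates span the introns that the coding bases skip, at chr14:56131376-56132522 for Gzmd, chr14:56158441-56159524 for Gzmg, chr14:56207055-56211357 for Gzmf, chr14:56119444-56120556 for Gzme, chr14:56234023-56234582 for Gzmc and chr14:56261230-56262149 for Gzmb.
Gzmd: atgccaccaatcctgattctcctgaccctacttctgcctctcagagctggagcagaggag
Gzmg: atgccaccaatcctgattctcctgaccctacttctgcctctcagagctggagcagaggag
Gzmf: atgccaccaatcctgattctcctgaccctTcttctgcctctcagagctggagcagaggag
Gzme: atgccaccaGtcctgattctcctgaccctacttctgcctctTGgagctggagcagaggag
Gzmc: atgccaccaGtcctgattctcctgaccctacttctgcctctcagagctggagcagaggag
Gzmb: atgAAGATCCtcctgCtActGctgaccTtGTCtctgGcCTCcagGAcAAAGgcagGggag
Gzmd and Gzmg had the same 60 bases, Gzmf and Gzmc differed from them at 1 position each, Gzme at 3 and Gzmb at 25.

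Reads can therefore fall on more than 1 of these genes. Of all 50-base windows of the Gzmd transcripts, 21.9% also occurred in transcripts of another gene, as did 20.6% for Gzme, 19.8% for Gzmg, 19.4% for Gzmf and 4.1% for Gzmc. No 50-base window of Gzma, Gzmb, Gzmk or Prf1 was shared. At 100 bases the shares were 0.2% for Gzmd, 0.2% for Gzmg and 6.7% for Gzmf, and no window of Gzme or Gzmc was shared. The long matches of Gzmf were with Gm4022, a gene on the opposite strand that overlaps 151 of its exonic bases. Read length, strand and the handling of reads with several matches were not given in the sources used here. Values of Gzmd, Gzme, Gzmf and Gzmg are therefore uncertain as values of single genes, and their sum with Gzmc is given beside them.

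**Figure D1:**
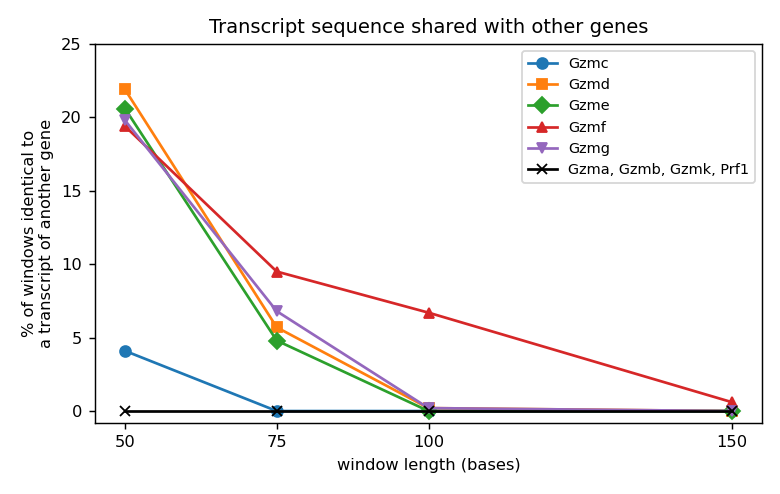
Share of sequence windows of each gene's transcripts (vertical axis, percent) that also occur in another gene's transcripts, for windows of 50, 75, 100 and 150 bases. Gzmd, Gzme, Gzmf and Gzmg lie near 20% at 50 bases, and Gzma, Gzmb, Gzmk and Prf1 have no shared window.

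The promoters of Gzmc to Gzmg were also alike. Promoters of the chromosome 14 members are shown because the genes differed in how they varied between tumors. The 150 bases before the RefSeq start (GRCm38.p6, minus strand) are printed for Gzmd (chr14:56132594-56132743), Gzmg (chr14:56159580-56159729), Gzmc (chr14:56234658-56234807) and Gzmb (chr14:56262335-56262484). Capitals mark the letters TGTGGT (Runx), TGACGTCA (the cyclic AMP response element, CRE) and TGANTCA (AP-1).
Gzmd: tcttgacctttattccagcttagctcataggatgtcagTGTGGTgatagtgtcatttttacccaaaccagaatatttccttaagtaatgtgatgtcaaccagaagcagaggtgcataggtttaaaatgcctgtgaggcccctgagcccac
Gzmg: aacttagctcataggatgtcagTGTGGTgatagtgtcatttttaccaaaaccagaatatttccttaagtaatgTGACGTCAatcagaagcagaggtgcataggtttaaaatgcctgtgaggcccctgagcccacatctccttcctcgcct
Gzmc: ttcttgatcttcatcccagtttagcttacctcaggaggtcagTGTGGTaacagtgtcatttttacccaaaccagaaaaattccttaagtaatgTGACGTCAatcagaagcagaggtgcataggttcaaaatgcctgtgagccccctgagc
Gzmb: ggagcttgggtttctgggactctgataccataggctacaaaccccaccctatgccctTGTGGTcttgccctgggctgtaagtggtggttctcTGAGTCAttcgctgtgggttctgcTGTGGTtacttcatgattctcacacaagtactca
These stretches of 150 bases were aligned in pairs, and identity was taken over the overlap, without unmatched ends. The promoters of Gzmc, Gzmd, Gzme, Gzmf and Gzmg were 87.2% to 97.0% identical, and that of Gzmb was 56.1% to 66.7% identical to theirs. The overlap lengths were not recorded. The RefSeq start of Gzmb, chr14:56262334, lay upstream of its GENCODE start, chr14:56262260. Counted from the start codon, the Gzmb window thus lay further upstream than those of the other genes. Its lower identity and its motif matches were therefore not taken over like stretches, and the effect of this offset was not tested. In the 250 bases before the start, searched on both strands for all 9 members, TGTGGT occurred in 8, all but Gzmk, against 14.0% of the 32851 RefSeq mouse promoters. TGACGTCA occurred in Gzmg, Gzmf and Gzmc, against 1.5% of promoters, and TGANTCA occurred in Gzmb, against 6.7%. GGTGTGA (T-box) occurred in Gzmk, against 3.3% of promoters. TTCNNNGAA (STAT, 7.0% of promoters) and TATAAA (12.4%) occurred in no member. Matches in the alike promoters of Gzmc to Gzmg are not independent of each other, so the counts of members are not counts of separate cases. These matches describe letters in the window and do not show binding.

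Total counts per tumor lay between 34400949 and 37578722 in D69A tumors and between 25904345 and 37556163 in WT tumors, so that 3 counts correspond to between 0.0798 and 0.116 CPM (counts scaled to library size). TMM scaling, which adjusts library totals for composition, was applied to them. Differences of D69A from WT were tested with edgeR (quasi-likelihood, Benjamini-Hochberg over 13798 genes), and a gene was called at an adjusted p under 0.05. Of those genes 24.7% were called lower and 18.8% higher in D69A tumors. Il18 itself averaged 27.3 ± 2.41 CPM in D69A tumors and 29.6 ± 2.56 CPM in WT tumors (SD, n = 5 each; adjusted p = 0.266), and gene counts do not tell the 2 introduced forms apart. Leukocyte transcripts were lower in D69A tumors: the 5 pan-leukocyte genes summed to between 107 and 236 CPM in D69A tumors and between 335 and 870 CPM in WT tumors. The 7 melanocyte genes summed to between 23300 and 29800 CPM in D69A tumors and between 15900 and 19500 CPM in WT tumors. The 9 skeletal muscle genes, a sign of adjoining tissue, ranged from 15.5 to 631 CPM in D69A tumors and from 16.2 to 1850 CPM in WT tumors, and were highest in D69A tumor 1, WT tumor 3 and WT tumor 4.

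Gzma, Gzmb, Gzmk and Prf1 were 4.45-fold to 8.18-fold lower in D69A tumors, whereas Gzmc was not detectably different and Gzmd, Gzme, Gzmf and Gzmg had their highest levels in a single D69A tumor. Of the 9 members, 7 passed the filter on low counts, which asks for 0.275 CPM in at least 5 tumors, and Gzme and Gzmf did not. Of the 7, 4 were called lower and 1, Gzmg, was called higher. The members are described in turn below, with the values of D69A tumors 1 to 5 followed by those of WT tumors 2 to 6 in that order.

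**Figure D2:**
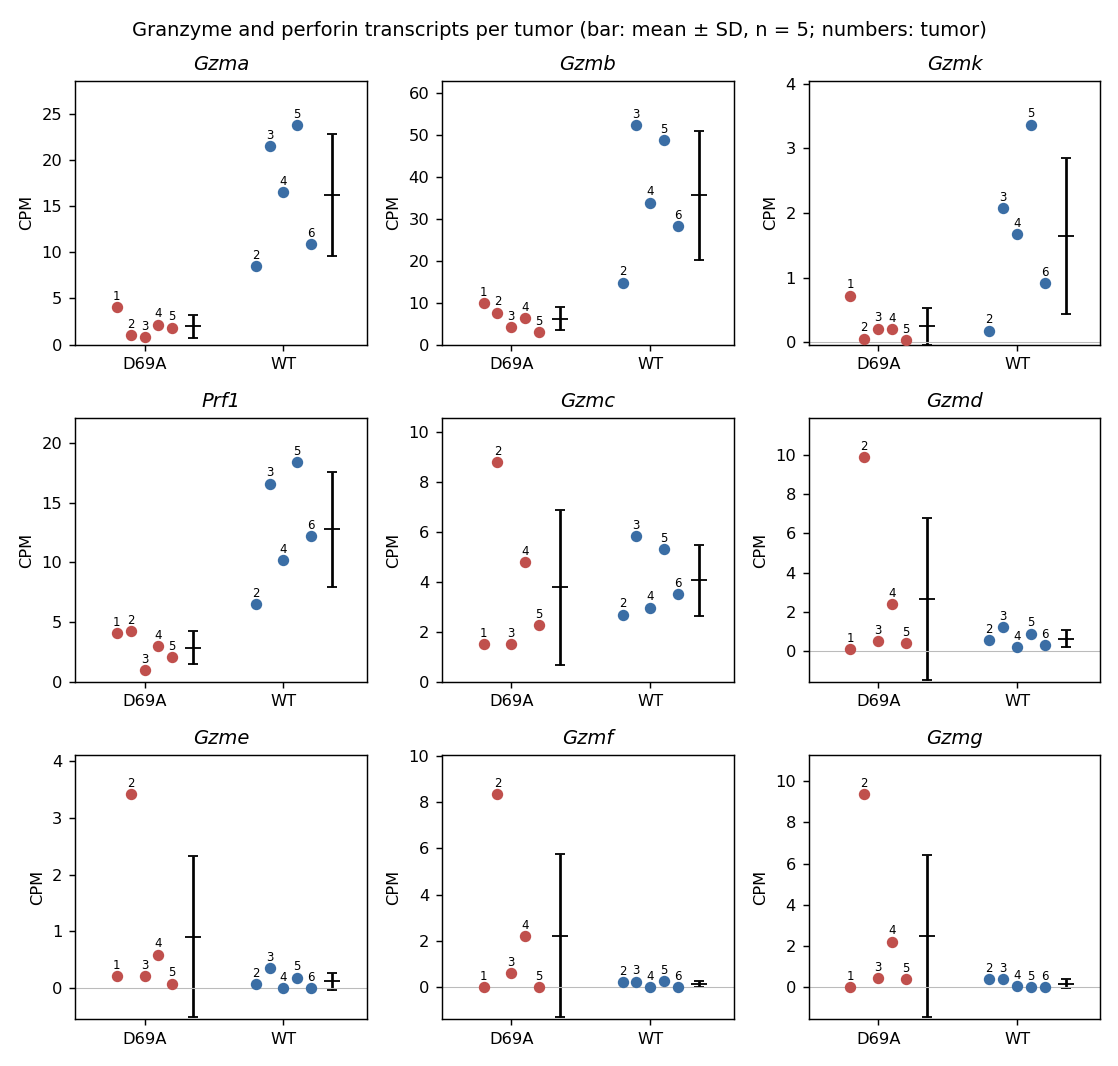
CPM of each member (vertical axes, 1 linear scale per panel) in each tumor, with D69A tumors left of WT tumors. Points are tumors, and the marker beside them is the mean with SD (n = 5 each). Gzma, Gzmb and Prf1 lie lower in every D69A tumor than in any WT tumor, and D69A tumor 2 stands above the rest in Gzmd, Gzme, Gzmf and Gzmg.

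Gzma encodes granzyme A, a tryptase-like granzyme. It stood at 4.04, 1.0, 0.841, 2.16 and 1.85 CPM in D69A tumors, against 8.5, 21.5, 16.5, 23.8 and 10.9 CPM in WT tumors. Every D69A tumor was below every WT tumor, which also held for 17.4% of all tested genes. The mean was 1.98 ± 1.28 CPM in D69A tumors and 16.2 ± 6.58 CPM in WT tumors (SD, n = 5 each). Gzma fell by 3.03 on the log2 scale (SE 0.45), an 8.18-fold lower level (edgeR's quasi-likelihood test, adjusted p = 0.000796). By log2 fold change it was the gene ranked 111 from the lowest of 13798.

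Gzmb encodes granzyme B, the aspartate-cutting member. It stood at 9.92, 7.66, 4.23, 6.33 and 2.93 CPM in D69A tumors, against 14.8, 52.4, 33.9, 48.8 and 28.3 CPM in WT tumors. The groups did not overlap, and WT tumor 2 was the WT tumor nearest to the D69A range. The mean was 6.21 ± 2.76 CPM in D69A tumors and 35.6 ± 15.4 CPM in WT tumors (SD, n = 5 each). Gzmb fell by 2.52 on the log2 scale (SE 0.39), a 5.73-fold lower level (edgeR's quasi-likelihood test, adjusted p = 0.00093).

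Prf1, the pore-forming protein, stood at 4.06, 4.23, 0.991, 2.96 and 2.09 CPM in D69A tumors, against 6.48, 16.6, 10.2, 18.4 and 12.2 CPM in WT tumors. The groups did not overlap, and WT tumor 2 was again the lowest WT tumor. The mean was 2.87 ± 1.36 CPM in D69A tumors and 12.8 ± 4.81 CPM in WT tumors (SD, n = 5 each). Prf1 fell by 2.15 on the log2 scale (SE 0.39), a 4.45-fold lower level (edgeR's quasi-likelihood test, adjusted p = 0.00168). Gzma, Gzmb and Prf1 were called lower with each tumor left out in turn.

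Gzmk encodes granzyme K, the chromosome 13 neighbour of Gzma. It stood at 0.722, 0.0557, 0.21, 0.207 and 0.0271 CPM in D69A tumors, against 0.181, 2.08, 1.67, 3.37 and 0.918 CPM in WT tumors. The groups overlapped, since WT tumor 2 lay below 3 of the D69A tumors and D69A tumor 1 stood above the other D69A tumors. These levels rest on sums of 44 counts in D69A tumors and 296 counts in WT tumors. Gzmk fell by 2.73 on the log2 scale (SE 0.83), a 6.63-fold lower level (edgeR's quasi-likelihood test, adjusted p = 0.0212). It was called lower with each tumor left out in turn, with adjusted p between 0.00542 and 0.0499, and was not called by limma-voom (adjusted p = 0.0543).

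In whole tumors, fewer cells of a type and less RNA per cell cannot be told apart. Markers of the cells that make granzymes were lower together with Gzma, Gzmb, Gzmk and Prf1. The 16 NK cell markers summed to 22.9, 13.0, 9.58, 11.0 and 7.76 CPM in D69A tumors, against 46.8, 113, 84.4, 106 and 56.7 CPM in WT tumors. All 16 were called lower, with a median log2 fold change of -2.94 against 0.0 over all tested genes. The 15 T cell markers summed to between 10.4 and 30.7 CPM in D69A tumors and between 44.2 and 128 CPM in WT tumors, and all 15 were called lower (median -2.66). Cd8a and Cd8b1, the CD8 coreceptor chains, summed to between 0.923 and 5.69 CPM in D69A tumors and between 5.61 and 25.2 CPM in WT tumors, and both were called lower. All 7 CD4 and regulatory T cell markers were called lower as well (median -2.89).

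Relative to NK or T cell transcripts, these 4 genes were not called different between the groups. With libraries scaled to the summed NK marker counts, the median log2 fold change of all tested genes moved to 2.68, and 90.1% of genes were called higher and 0.145% lower. On that scale the log2 fold change (D69A over WT) was -0.35 (SE 0.36, adjusted p = 0.358) for Gzma and 0.17 (SE 0.35, adjusted p = 0.634) for Gzmb. It was -0.11 (SE 0.5, adjusted p = 0.841) for Gzmk and 0.53 (SE 0.36, adjusted p = 0.156) for Prf1 (edgeR's quasi-likelihood test in each case). With libraries scaled to T cell marker counts, the median of all tested genes was 2.3, with 86.6% called higher and 0.428% called lower. The values on that scale were -0.69 (SE 0.38, adjusted p = 0.0772) for Gzma, -0.16 (SE 0.37, adjusted p = 0.681) for Gzmb, -0.42 (SE 0.51, adjusted p = 0.444) for Gzmk and 0.19 (SE 0.38, adjusted p = 0.634) for Prf1. Gzma relative to T cell markers was called lower without D69A tumor 1 and without D69A tumor 5. These fits estimate spread partly from all genes, so an SE need not match a gene's own spread. A gene not called is therefore not shown to be unchanged. All genes share each tumor's marker sum on these scales, so the p-values of called genes are too small, and the NK list holds genes that T cells also express, such as Klrk1, Klrd1, Klrc1, Xcl1 and Cd244a.

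**Figure D3:**
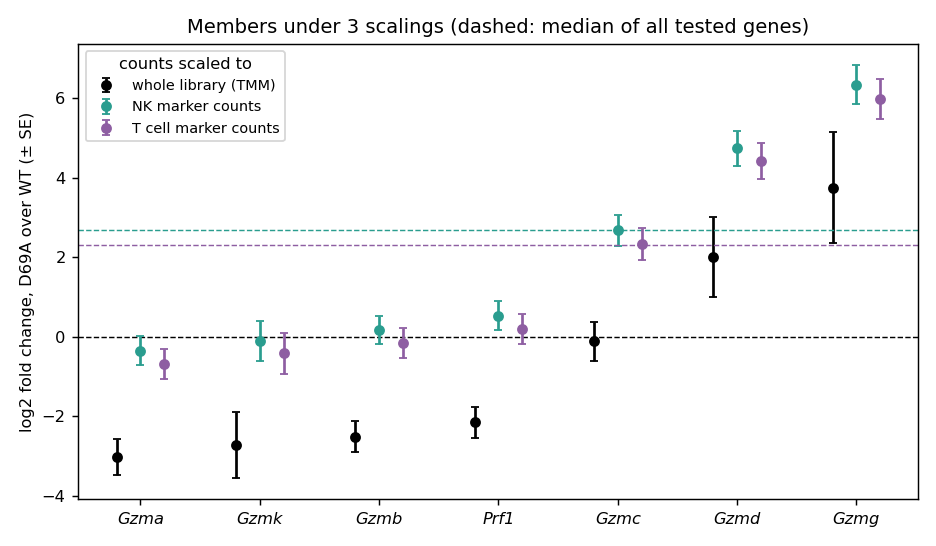
Log2 fold change (D69A over WT) of each tested member (points, bars are SE) under TMM scaling and under scaling to summed NK or T cell marker counts, with the dashed line at the median of all tested genes on each scale. Gzma, Gzmb, Gzmk and Prf1 lie between -3.03 and -2.15 under TMM and between -0.69 and 0.53 on the marker scales.

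Per tumor, Gzma came to 131, 61.0, 63.1, 148 and 177 counts per 1000 T cell marker counts in D69A tumors, against 192, 190, 183, 186 and 188 in WT tumors. The WT tumors lay close together and each D69A tumor lay below them, with D69A tumor 5 nearest, a separation found in 0.283% of all tested genes on this scale. On the NK scale Gzma did not separate the groups. There it came to 176, 77.3, 87.8, 196 and 238 per 1000 NK marker counts in D69A tumors, against 182 to 224 in WT tumors. Gzmb came to between 378 and 590 counts per 1000 NK marker counts in D69A tumors and between 317 and 499 in WT tumors. Prf1 came to between 103 and 326 per 1000 in D69A tumors and between 121 and 215 in WT tumors, so that both of these genes overlapped between groups.

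Gzmc, the cluster gene nearest to Gzmb, differed from the 4 genes above. It stood at 1.52, 8.8, 1.5, 4.79 and 2.28 CPM in D69A tumors, against 2.69, 5.85, 2.97, 5.3 and 3.52 CPM in WT tumors. The groups overlapped throughout, with D69A tumor 2 the highest of all 10. The mean was 3.78 ± 3.11 CPM in D69A tumors and 4.07 ± 1.42 CPM in WT tumors (SD, n = 5 each). Gzmc was not called, with a log2 fold change of -0.11 and an SE of 0.49 (edgeR's quasi-likelihood test, adjusted p = 0.88). Its sign changed to positive in 5 of the 10 fits with a tumor left out and in the fit without the 3 tumors highest in muscle markers (0.18), and it was not called in any of these.

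Gzmd stood at 0.107, 9.88, 0.511, 2.4 and 0.434 CPM in D69A tumors, against 0.594, 1.23, 0.212, 0.91 and 0.344 CPM in WT tumors. D69A tumors 2 and 4 were above all WT tumors, and D69A tumor 1 was below all of them. The log2 fold change was 2.0 (SE 1.01) and was not called (edgeR's quasi-likelihood test, adjusted p = 0.131). Without D69A tumor 2 it was 0.38 (adjusted p = 0.731).

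Gzmg stood at 0.0, 9.38, 0.451, 2.22 and 0.38 CPM in D69A tumors, against 0.413, 0.41, 0.0531, 0.0 and 0.0 CPM in WT tumors. The groups overlapped, and most of the D69A level lay in tumors 2 and 4. The mean was 2.49 ± 3.95 CPM in D69A tumors and 0.175 ± 0.217 CPM in WT tumors (SD, n = 5 each). Gzmg was higher by 3.75 on the log2 scale (SE 1.39), a 13.5-fold higher level (edgeR's quasi-likelihood test, adjusted p = 0.048). Leaving out D69A tumor 2 or 4 or any single WT tumor ended the call, 7 of the 10 tumors in all, and without D69A tumor 2 the log2 fold change was 2.05 (adjusted p = 0.211). Neither DESeq2 (adjusted p = 0.06) nor limma-voom (adjusted p = 0.293) called it.

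Gzmf and Gzme reached the filter's minimum in 3 tumors each and were not in the test over all genes. Gzmf had 0, 300, 20, 75 and 0 counts in D69A tumors, against 8, 9, 0, 10 and 0 counts in WT tumors. Gzme had 8, 123, 7, 20 and 3 counts in D69A tumors, against 3, 13, 0, 7 and 0 counts in WT tumors. D69A tumors 2 and 4 held the highest counts of both genes, and the other D69A tumors overlapped with WT tumors in Gzme. With no filter on low counts the log2 fold change was 3.89 (SE 1.46, adjusted p = 0.06) for Gzmf and 2.82 (SE 1.13, adjusted p = 0.0766) for Gzme, so neither was called (edgeR's quasi-likelihood test).

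D69A tumor 2 held 75.1% of the Gzmd counts of the D69A group, 76.4% of those of Gzme, 75.9% of those of Gzmf and 76.4% of those of Gzmg. Its share was 47.2% for Gzmc, 24.8% for Gzmb, 29.6% for Prf1, 10.1% for Gzma and 4.55% for Gzmk. In the other 4 D69A tumors Gzmd averaged 0.862 ± 1.04 CPM and Gzmg 0.762 ± 0.991 CPM (SD, n = 4). The NK marker sum of D69A tumor 2, at 13.0 CPM, and its T cell marker sum, at 16.4 CPM, were the second highest of the D69A tumors and below all WT tumors.

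Summed over Gzmc to Gzmg, which does not depend on how reads were split among them, the level was 1.84, 39.8, 3.27, 12.2 and 3.18 CPM in D69A tumors, against 3.98, 8.09, 3.24, 6.67 and 3.86 CPM in WT tumors. The sum of Gzma, Gzmb, Gzmk and Prf1 was 18.7, 12.9, 6.28, 11.7 and 6.89 CPM in D69A tumors, against 30.0, 92.6, 62.3, 94.4 and 52.3 CPM in WT tumors. The cluster sum overlapped between groups and the sum of the 4 other genes did not. Reads shared with genes outside the cluster sum can still affect it. Gzmf shares windows with Gm4022, and Gzmd, Gzme and Gzmg share some with Gzmn. Gzmn, a further granzyme gene of this locus, was not among the genes measured. The log2 fold change of the cluster sum, given with no test, was 1.22 (SE 0.76), and it was -0.01 without D69A tumor 2.

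As a share of all 9 members, the cluster made up 8.96%, 75.5%, 34.3%, 51.2% and 31.5% of the CPM in D69A tumors, against 11.7%, 8.03%, 4.95%, 6.6% and 6.88% in WT tumors. Of the D69A tumors, 4 lay above all WT tumors and D69A tumor 1 lay among them. The share averaged 40.3 ± 24.8% in D69A tumors and 7.63 ± 2.53% in WT tumors (SD, n = 5 each).

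**Figure D4:**
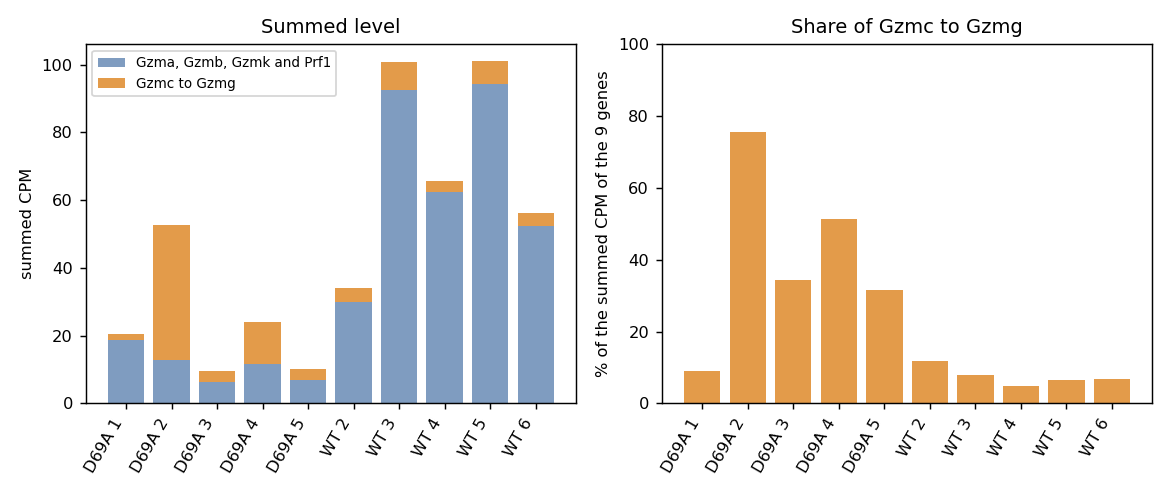
Summed CPM of Gzma, Gzmb, Gzmk and Prf1 and of Gzmc to Gzmg stacked in 1 bar per tumor (left panel), and the share of the 9 members' summed CPM taken by Gzmc to Gzmg in percent (right panel), with D69A left of WT. In the right panel the D69A tumors spread from 8.96% to 75.5% and the WT tumors from 4.95% to 11.7%.

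Gzmc shares fewer windows with the cluster than its other genes do among themselves, and its ratio to Gzmb needs no scaling of libraries. There were 0.154, 1.15, 0.355, 0.757 and 0.778 Gzmc counts per Gzmb count in D69A tumors, against 0.181, 0.112, 0.0878, 0.109 and 0.124 in WT tumors. D69A tumors 2 to 5 were above every WT tumor, and D69A tumor 1 was within the WT range. The log2 ratio was higher by 2.12 in D69A tumors (two-sided exact permutation test over 252 assignments, p = 0.0159, adjusted over 3 ratios 0.0477, smallest possible p 0.00794). With each tumor left out in turn the difference lay between 1.83 and 2.55, and the adjusted p of the exact permutation test lay between 0.0475 and 0.0951, under 0.05 in 3 of 10 cases (without D69A tumor 1, D69A tumor 5 or WT tumor 2). Without D69A tumor 2 the difference was 1.83 (exact permutation test, adjusted p = 0.0951). The unadjusted p was 0.0159 or 0.0317 with any 1 tumor left out, as fewer tumors allow fewer possible p-values. Without the 3 tumors highest in muscle markers the difference was 2.38 (exact permutation test, p = 0.0571, adjusted p = 0.171). That p is the smallest possible with so few tumors, so the test could not reach 0.05 there. The log2 ratio of Gzma to Gzmb differed by -0.65 (exact permutation p = 0.175, adjusted 0.262) and that of Prf1 to Gzmb by 0.28 (exact permutation p = 0.365, adjusted 0.365). These ratios were chosen after the values were seen. Without D69A tumor 5 the difference for Gzma over Gzmb was -0.92 (exact permutation test, adjusted p = 0.0475), and it was not called without any other single tumor.

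Per NK marker count, Gzmc was higher in every D69A tumor than in any WT tumor, at between 66.4 and 678 counts per 1000 in D69A tumors and between 35.2 and 62.1 in WT tumors. This separation held for 86.1% of all tested genes on that scale. The log2 fold change of Gzmc relative to NK markers was 2.67 (SE 0.38), next to the median of 2.68 over all tested genes. Gzmd came to 4.66, 762, 53.3, 218 and 55.9 counts per 1000 NK marker counts in D69A tumors, against 2.52 to 12.7 in WT tumors. Gzmg came to 0.0, 723, 47.0, 202 and 49.0 per 1000 in D69A tumors, against 0.0 to 8.84 in WT tumors. Both genes were highest in D69A tumors 2 and 4, and D69A tumor 1 lay within the WT range. Their fitted values, 4.74 for Gzmd and 6.34 for Gzmg, rest mostly on those high tumors, and their SEs on this scale, 0.44 for Gzmd and 0.5 for Gzmg, were smaller than under TMM (1.01 and 1.39).

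The order of the members differed between the groups when levels were taken as CPM per kilobase of exon. In D69A tumors Gzmb (4.33 ± 1.92) and Gzmc (4.23 ± 3.48) led, and Gzmb was above Gzmc in 2 of 5 tumors. They were followed by Gzmd (2.77 ± 4.29), Gzmg (2.74 ± 4.35), Gzmf (2.43 ± 3.85), Gzma (1.97 ± 1.27), Prf1 (1.11 ± 0.527), Gzme (0.987 ± 1.55) and Gzmk (0.176 ± 0.201), all as CPM per kilobase with SD over 5 tumors. D69A tumor 2 sets this order: in the other 4 D69A tumors Gzma (2.21 ± 1.33) and Prf1 (0.977 ± 0.504) stood above Gzmd (0.894 ± 1.08), Gzmg (0.839 ± 1.09) and Gzmf (0.767 ± 1.14), and Gzmb (4.08 ± 2.12) and Gzmc (2.82 ± 1.74) still led. In WT tumors Gzmb (24.8 ± 10.7) was above Gzma (16.1 ± 6.54) in all 5 tumors, and Gzma was above Prf1 (4.94 ± 1.86) in all 5. Prf1 and Gzmc (4.55 ± 1.59) did not differ beyond their spread, since Prf1 was above Gzmc in 3 of 5 WT tumors. Gzmk (1.18 ± 0.87), Gzmd (0.683 ± 0.431), Gzmg (0.193 ± 0.239), Gzmf (0.157 ± 0.145) and Gzme (0.135 ± 0.164) came last in WT tumors.

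Within groups the members varied in blocks that followed the same division. The deviations of log2 CPM from the group means, over 10 tumors, correlated at 0.48 to 0.83 (median 0.69) in the 6 pairs among Gzma, Gzmb, Gzmk and Prf1. They correlated at 0.71 to 0.93 (median 0.86) in the 10 pairs within Gzmc to Gzmg, where shared reads also enter, and at -0.54 to 0.63 (median -0.01) in the 20 pairs between the blocks. D69A tumor 2 had the highest deviation of each gene from Gzmc (1.56) to Gzmg (3.62), with Gzmf at 4.0. Correlations of the cluster genes, and their best matches, thus lean on that tumor and were not computed without it. These are descriptions over tumors that share library totals, with no test. By the same measure over 12642 other genes, the best matches of Gzma were Tifab (0.975), Dram1 (0.972) and Fam213b (0.966), and those of Gzmb were Slc9a7 (0.97), Plcl2 (0.969) and Cxcr3 (0.967). Those of Gzmk were Ubash3a (0.979), Cxcr6 (0.972) and Gimap7 (0.967), and those of Prf1 were Nectin4 (0.964), Gm13212 (0.963) and Il12rb1 (0.959). Gzmc and Gzmd shared a best match in Zbtb38 (0.954 with Gzmc and 0.943 with Gzmd). Cdc42se1 and Gorab were among the best matches of Gzme (0.928 and 0.926) and of Gzmf (0.889 and 0.876), and Ykt6 (0.916) was that of Gzmg.

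Other contents of cytotoxic granules mostly fell with Gzma and Gzmb. Of 9 tested genes, 6 were lower and 1 higher (median log2 fold change -0.62). Nkg7, a granule membrane protein needed for degranulation, averaged 1.98 ± 1.39 CPM in D69A tumors and 13.9 ± 5.62 CPM in WT tumors (SD, n = 5 each), a 7.02-fold lower level (adjusted p = 0.00119). Ctsw, a cathepsin of cytotoxic cells, was 8.79-fold lower, Cst7, an inhibitor of cathepsins in granules, 4.83-fold lower, and Srgn, the proteoglycan that packs granule proteins, 4.14-fold lower. Ctsc, which activates granzymes by trimming them, was 1.54-fold lower and Ctsl 1.34-fold lower. Lamp1, a lysosomal membrane protein of most cells, was 1.19-fold higher. Gzmm, a further granzyme, did not pass the filter on low counts, at 0.126 ± 0.105 CPM in D69A tumors and 0.298 ± 0.147 CPM in WT tumors (SD, n = 5 each).

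Of the machinery of granule release, 3 of 10 tested genes were lower and 4 higher (median -0.05). The share lower, 30.0%, was near the 24.7% of all tested genes, and the share higher was 40.0% against 18.8%. Coro1a, an actin regulator of leukocytes, was 4.58-fold lower, Unc13d, which primes granules for fusion, 2.66-fold lower, and the syntaxin Stx11 1.44-fold lower. Lyst was 1.49-fold higher, Rab27a 1.36-fold higher, Ap3b1 1.19-fold higher and Rab7 1.1-fold higher. Lyst, Rab27a and Ap3b1 also serve melanosomes in pigment cells, and 5 of 7 melanocyte markers were higher in D69A tumors (median 0.44). The part of pigment cells in these values was not tested.

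**Figure D5:**
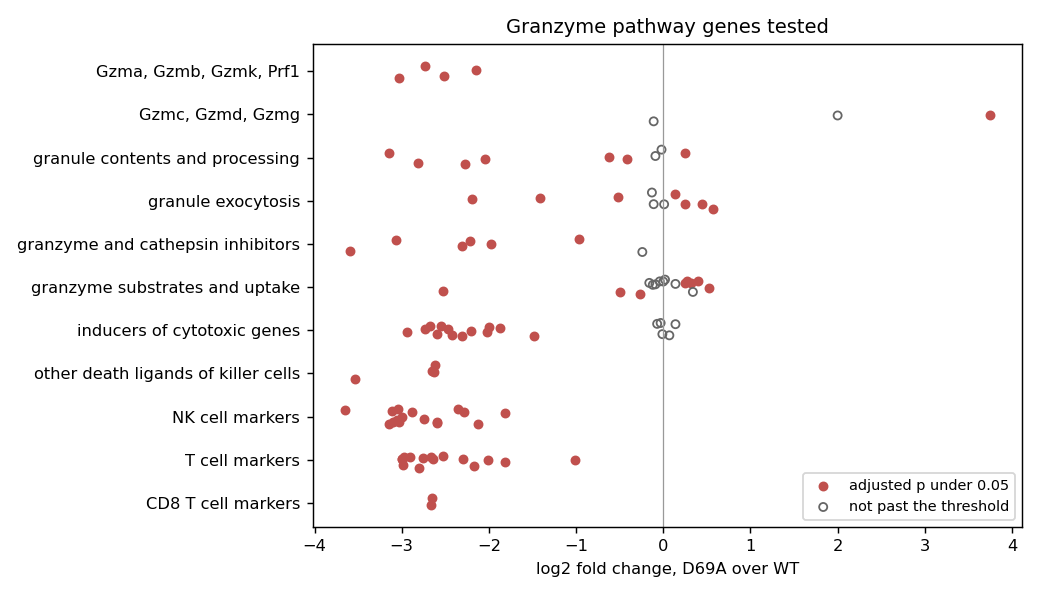
Log2 fold change (D69A over WT) of each tested gene (horizontal axis), with 1 row each for the members, the pathway lists and the NK, T and CD8 T cell markers, and points spread vertically for sight. Filled points passed an adjusted p of 0.05 and open points did not; inducers, inhibitors and death ligands lie mostly below 0, and release genes and substrates lie around 0.

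Inhibitors of granzymes and cathepsins were lower in 6 of 7 genes (median -2.22). Serpina3g, an inhibitor of cathepsins, was 12.0-fold lower, at 7.03 ± 5.06 CPM in D69A tumors and 84.9 ± 42.5 CPM in WT tumors (SD, n = 5 each; adjusted p = 0.000728). Serpinb6b, which inhibits mouse granzyme A, was 8.35-fold lower, and Serpinb9, which inhibits granzyme B, 3.95-fold lower. Serpinb1a was 4.95-fold lower, Serpina3n 4.66-fold lower and Serpinb9b 1.96-fold lower. Serpinb6a was not called (adjusted p = 0.0676).

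Granzyme substrates and receptors for uptake, which most cells express, gave 3 lower and 5 higher of 16 (median 0.01). These are 18.8% lower and 31.2% higher, against 24.7% and 18.8% of all tested genes. Gsdmd, a pore-forming gasdermin, was 5.79-fold lower. Bid averaged 49.3 ± 3.78 CPM in D69A tumors and 53.5 ± 6.09 CPM in WT tumors (SD, n = 5 each) and was not called (adjusted p = 0.284). M6pr, a mannose 6-phosphate receptor, was 1.2-fold lower and Igf2r, the other one, 1.32-fold higher. Apex1 was 1.43-fold higher, Hmgb2 1.24-fold higher, Nme1 1.21-fold higher and Parp1 1.19-fold higher.

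Among 18 inducers of cytotoxic genes, 13 were lower (median -2.12). Il18r1 and Il18rap, the chains of the IL-18 receptor, were 5.87-fold and 6.39-fold lower. Il2rb, a receptor chain for IL-2 and IL-15, was 6.64-fold lower, Stat4, which acts downstream of IL-12, 6.03-fold lower, and Eomes 4.64-fold lower. Eomes averaged 0.689 ± 0.258 CPM in D69A tumors and 3.21 ± 0.763 CPM in WT tumors (SD, n = 5 each; adjusted p = 0.000575). Stat5a, at 34.3 ± 0.912 CPM in D69A tumors and 36.0 ± 3.61 CPM in WT tumors, was not called (adjusted p = 0.441), nor were Stat5b, Id2, Zeb2 and Bhlhe40.

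The other death ligands of killer cells were lower in 4 of 4 genes (median -2.64), with Fasl 11.6-fold lower, Lta 6.26-fold lower, Tnf 6.19-fold lower and Tnfsf10 6.16-fold lower. Fasl averaged 0.128 ± 0.0936 CPM in D69A tumors and 1.53 ± 0.552 CPM in WT tumors (SD, n = 5 each; adjusted p = 0.000941). Relatives of perforin were lower in 3 of 3 tested genes, with Mpeg1, a pore-forming protein of macrophages, 4.7-fold lower, and the complement proteins C6 and C7 9.89-fold and 9.12-fold lower. Cma1 and Mcpt4, mast cell proteases of the same chromosome 14 locus, were 6.41-fold (adjusted p = 0.0293) and 7.89-fold lower (adjusted p = 0.0133). Markers of other cells that can express granzymes or these proteases were read as well. Of the mast cell and basophil markers 3 of 4 tested genes were lower (median -1.94). The list's sum lay at 22.0 to 26.1 CPM in D69A tumors and 18.8 to 28.3 CPM in WT tumors and was carried by Gata2. Fcer1a, Ms4a2 and Mrgprb2 were not tested: they were at 0 in D69A tumors and averaged 0.0426, 0.0748 and 0.0805 CPM in WT tumors, close to or below the level of 3 counts. All 5 markers of plasmacytoid dendritic cells (median -2.1), both tested neutrophil markers (median -1.81) and all 5 pan-leukocyte markers (median -2.14) were lower, while Des had the smallest adjusted p of the 9 skeletal muscle markers, at 0.153 (list median -2.0). The part of these cells in the granzyme values was not tested.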

How the data were processed

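The deposited table held whole-number read counts per Ensembl gene for 10 tumors, unscaled between samples. Per the submitters' processing notes, fastp, HISAT, Bowtie, RSEM and the build mm10 were used. Tool roles, versions, read length and strandedness were not given in the sources used here. Since RSEM estimates counts, the deposited values may be rounded estimates. Identifiers were matched to GENCODE mouse release 21 (17670 matched, 67 not). Every sample column was assigned by name. Within groups every pair of tumors differed by more than sampling noise (smallest chi-square per degree of freedom 13.85, genes with at least 20 counts).

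Genes were filtered with filterByExpr by group, scaled by TMM and tested with edgeR 4.0.16 (R 4.3.3; quasi-likelihood, Benjamini-Hochberg over 13798 genes, threshold 0.05); SEs came from the F statistic. A second pair of fits scaled libraries to summed NK or T cell marker counts. Correlations used log2 CPM with a prior count of 2. On simulated counts for 13798 genes the test recovered 40.3% of 1.5-fold, 82.1% of 2-fold and 92.4% of 4-fold changes. Of its calls 7.14% fell on unchanged genes, above the threshold of 0.05. The simulation changed 66 or 67 genes per fold, far fewer than were called in the tumors. Identity, shared windows and motifs were computed from GENCODE transcripts and RefSeq promoters, found for all 9 members. No protein sequences were used here.

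The members and gene lists were chosen with earlier results of these data known. The genes named are all members; per list up to 6 tested genes with the smallest p and any gene against the list's majority; and per member the 3 best correlated genes with a mean of at least 1 CPM. Klrd1, Klrc1, Gzmm, Ctsc, Rab7, Serpinb6a, Bid, Stat5a, Stat5b, Id2, Zeb2, Bhlhe40, Hmgb2, Parp1, Fcer1a, Ms4a2 and Mrgprb2 were named outside it. Some genes of the lists are not reported here. Alternatives were DESeq2 1.42.0, limma-voom (limma 3.58.1), other scalings, filters and thresholds, the replicate number as a block, each tumor left out, and removal of the 3 tumors highest in muscle markers. The ratios to Gzmb were added after the values were seen.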

Additional observations from a re-analysis of the deposited data

Results flagged for a closer look

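Each measure was examined once in D69A and once in WT tumors, 24 groups of values in all. In 6 of them 1 tumor was set apart from the other 4 by more than 0.71 of the group's range. All 6 were groups of D69A tumors, and no group of WT tumors was flagged. Chance alone gives about 1 in 20 for normally distributed values. These are CPM on a linear scale, some from low counts, so that rate need not hold here. The values also share tumors and reads and are not independent. Gzmd (9.88 CPM), Gzme (3.42 CPM), Gzmf (8.35 CPM), Gzmg (9.38 CPM) and the sum of Gzmc to Gzmg (39.8 CPM) stood apart in D69A tumor 2. Gzmk stood apart in D69A tumor 1 at 0.722 CPM, a tumor that also had the highest NK and T cell marker sums of its group.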

How the results depend on the processing

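Gzma, Gzmb and Prf1 were called lower under every edgeR, DESeq2 and limma-voom alternative on library-based scales, and 3 to 4 members were called lower throughout (4 in every fit that left out 1 tumor), with Gzmk not tested under at least 1 CPM in 5 tumors or without WT 3, WT 4 and D69A 1. The count of members called higher, 1 (Gzmg), was 0 with DESeq2, limma-voom, upper quartile scaling, library size only, no low count filter, at least 1 CPM in 5 tumors, an adjusted p under 0.01 and without WT 3, WT 4 and D69A 1, and 0 to 1 with each tumor left out. At an unadjusted p under 0.05 it was 2 with DESeq2, 0 with limma-voom, 1 with upper quartile scaling or library size only, 3 with no filter, 0 of 4 tested with the strict filter and 2 without the 3 tumors. Genes called higher numbered 2594, and 1727 without the 3 tumors and 1334 at 0.01. Pathway list genes called higher numbered 10, and 6 with upper quartile scaling, 5 with library size only, 6 with no filter, 4 without the 3 tumors, 4 at 0.01, and 4 to 11 with each tumor left out. Members called higher relative to NK or T cell markers numbered 3 of 7 tested. Of all tested genes, 90.1% (NK) and 86.6% (T) were called higher on these scales. The members called higher numbered 5 with no filter and 1 with the strict filter. Those lower relative to T cell markers ranged from 0 to 1, where 0.428% of all tested genes were called lower in the main fit. The cluster sum's log2 fold change of 1.22 was 0.33 with limma-voom and -0.01 to 1.51 with each tumor left out. Signs turned on marker scales for Gzmb (NK 0.17), Prf1 (NK 0.53, T 0.19), Gzmc (NK 2.67, T 2.33) and Il18 (NK 2.54, T 2.15), by the construction of those scales. Gzmc also turned without the 3 tumors (0.18) and ranged from -0.68 to 0.15 with each tumor left out; the cause was not tested. Gzmc over Gzmb was 2.38 without the 3 tumors (exact permutation test, adjusted p = 0.171), where so few tumors allow no p under 0.05.

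The labels do not say what the replicate numbers mean. For numbers 2 to 5, deviations of same-numbered tumors correlated at 0.177, -0.417, 0.203 and 0.167. These values were not compared with those of differently numbered tumors, so pairing by number was not tested. With the number as a block, 3218 genes were lower, 2246 higher, 4 members lower and 1 higher, pathway genes higher fell to 6 and the cluster sum was 0.7. Gzme, Gzmf and Gzmg had 0 to 16 counts per WT tumor, so their folds are imprecise; counting intervals cover counting error only.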
